A study of Mus musculus with 12 samples.

Results

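The genes described here are 10 targets of the transcription factor p53, chosen by name as textbook targets: Cdkn1a, Ccng1, Plk2, Mdm2, Trp53inp1, Bax, Pmaip1, Perp, Zmat3 and Sesn1. The choice was made with earlier results of these data known. All 10 were among the 24318 genes of the deposited table, and all 10 passed the filter on low counts that left 12469 genes to test. Polyadenylated RNA had been sequenced from immortalized mouse embryonic fibroblasts in 4 groups of 3 libraries. These are T-N2G cells with 100 µM diethyl maleate (DEM), T-N2G cells with vehicle, mock cells with 100 µM DEM and mock cells with vehicle, each for 12 h. Every group carries the MafF-/-::MafG-/-::MafK-/- genotype, so by their label the mock controls lack the small Maf proteins too, the DNA-binding partners of the stress factor Nrf2. T-N2G is Nrf2 tethered to MafG, a heterodimer made as 1 protein. DEM is an electrophile that binds glutathione and sets off the oxidative stress response. The labels do not give the promoter that drives T-N2G, whether a cell population is 1 clone, how the cells were immortalized or whether their Trp53 gene is intact.

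p53 is a transcription factor that is held low by the ubiquitin ligase Mdm2 and is stabilized when DNA is damaged or cells are stressed. It binds DNA as a tetramer, at pairs of half-sites, and induces genes that stop the cell cycle, start apoptosis or limit oxidative damage. Mdm2 is itself a target, which closes a feedback loop. Because p53 is regulated mainly as a protein, its own mRNA says little about its activity, and its targets are the usual readout at the RNA level. In fibroblasts the pathway is best known for cell cycle arrest and senescence.

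In both cell populations DEM-treated libraries held less RNA of most of these genes than vehicle libraries, and the RNA of p53 itself (Trp53) was not called in any comparison. Plk2 had the largest DEM response in T-N2G cells, and in mock cells Plk2 and Trp53inp1 shared the largest log2 fold change. Sesn1 had no DEM response that was called. Between the DEM-treated populations, Bax was called higher with T-N2G and Pmaip1 lower, against 2.61% and 1.11% of all genes. The Bax call was often lost when single libraries were left out. Once the replicate number entered the fit, 7 members were lower with T-N2G under DEM, against 9.32% of all genes. In vehicle that fit called 6 lower, against 3.24%.

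The stretches before 4 gene starts are shown because 3 of these genes hold a p53 half-site there and Plk2, the gene with the largest DEM response in T-N2G cells, does not. They are the 250 bases before the annotated start, from RefSeq on GRCm38.p6, and capitals mark matches to the p53 half-site consensus of 10 bases and to a pair of its CATG cores (CATGNNNNNNCATG). The Cdkn1a start shown is the upstream one of a pair that lie 2790 bases apart. It is at chr17:29090729-29090978 on the plus strand, Ccng1 at chr11:40755287-40755536 on the minus strand, Bax at chr7:45466899-45467148 on the minus strand and Plk2 at chr13:110394794-110395043 on the plus strand.
Cdkn1a: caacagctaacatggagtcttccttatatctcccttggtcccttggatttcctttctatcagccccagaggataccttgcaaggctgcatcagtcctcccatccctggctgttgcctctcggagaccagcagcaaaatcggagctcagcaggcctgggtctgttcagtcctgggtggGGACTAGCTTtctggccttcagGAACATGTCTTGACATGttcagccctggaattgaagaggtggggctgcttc
Ccng1: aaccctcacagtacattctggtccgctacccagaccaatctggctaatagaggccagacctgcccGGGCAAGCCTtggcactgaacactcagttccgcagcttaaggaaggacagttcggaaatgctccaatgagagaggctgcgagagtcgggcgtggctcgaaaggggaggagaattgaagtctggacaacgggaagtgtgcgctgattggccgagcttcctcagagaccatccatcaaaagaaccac
Bax: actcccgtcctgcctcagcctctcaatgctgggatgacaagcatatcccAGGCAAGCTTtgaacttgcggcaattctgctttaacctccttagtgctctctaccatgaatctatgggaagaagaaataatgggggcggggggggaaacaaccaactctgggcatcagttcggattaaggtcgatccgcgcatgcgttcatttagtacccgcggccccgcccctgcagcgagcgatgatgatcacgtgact
Plk2: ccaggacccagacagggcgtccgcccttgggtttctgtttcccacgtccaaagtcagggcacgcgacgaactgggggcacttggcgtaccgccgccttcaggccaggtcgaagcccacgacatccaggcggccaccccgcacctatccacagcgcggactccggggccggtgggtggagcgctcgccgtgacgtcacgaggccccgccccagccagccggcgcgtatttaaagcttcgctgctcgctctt

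The search covered both strands of windows of 300 bases, from 250 before to 50 after each start, in 32851 windows. A half-site occurred in 8.36% of all windows and a pair of CATG cores in 0.712%. A pair of half-sites 0 to 13 bases apart occurred in 0.0731%, and the Cdkn1a window shown holds such a pair at -73 to -64 and -51 to -42 (counted with the start as 0), of which the second overlaps the pair of CATG cores at -48 to -35. Bax at -201 to -192, Ccng1 at -185 to -176, Mdm2 at -186 to -177 and 1 of the Sesn1 windows at -173 to -164 hold 1 half-site each. The core of the antioxidant response element, the site of Nrf2 and small Maf dimers (TGACNNNGC), occurred in 12.4% of windows and among the members only beside the second Cdkn1a start, at 27 to 35. A TATA box (TATAAA) occurred in 13.6% of windows and in none of the 8 member windows. These 8 windows belong to 6 members, and Perp, Zmat3, Trp53inp1 and Pmaip1 have no window shown. A match is a description of letters, not a site at which binding was measured.

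Library totals were 18863560 to 23095692 fragments, and the levels below are CPM, fragments scaled to the effective library size. Nothing in the labels tells if the replicates came from separate cultures, so p-values measure only the spread between these libraries. T-N2G libraries held 11.3-fold more Nfe2l2 (the gene of Nrf2) and 264-fold more Mafg than mock libraries in vehicle, and 8.90-fold and 138-fold more under DEM. The labels state that these cells carry T-N2G but give no fold. Mock libraries held only 0.472 to 0.550 CPM of Mafg in vehicle and 0.820 to 0.932 under DEM, so the Mafg folds rest on very low levels. RNA of the other deleted genes was still counted, with Maff at 3.70 to 5.02 CPM in T-N2G DEM, 3.08 to 4.57 in T-N2G vehicle, 3.49 to 5.69 in mock DEM and 3.35 to 4.60 in mock vehicle libraries, and Mafk at 1.42 to 2.68 CPM over all 12. Whether these fragments come from the deleted part of the genes cannot be read from counts per gene. All 8 fibroblast markers were detected, with a summed level of 11717 to 14666 CPM in T-N2G DEM, 14533 to 18844 in T-N2G vehicle, 13706 to 16624 in mock DEM and 14645 to 18001 in mock vehicle libraries. Their median log2 fold change with DEM was -0.46 in T-N2G cells, with 1 of 8 called lower and 7 of 8 with the replicate number in the fit, and -0.17 in mock cells, with 0 and 5 of 8. Of all genes 7.55% and 22.2% were called lower in these T-N2G fits, and 6.18% and 21.9% in the mock fits. The part of these markers in the members' change with DEM was not tested. The 4 immune markers summed to at most 0.525 CPM, with Adgre1 and Cd3e at 0 in all 12 libraries. The 4 epithelial markers summed to 5.09 to 26.2 CPM, mostly Krt14 at 4.16 to 25.5 CPM. The 3 endothelial markers summed to 3.91 to 12.5 CPM, mostly Kdr at 3.84 to 12.4 CPM, and the 3 muscle markers to at most 0.660 CPM. In bulk RNA, fewer cells that express a gene and less RNA per cell cannot be told apart.

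By FPKM, which scales for transcript length, the members fell into tiers in mock vehicle cells (mean ± SD, n = 3). Bax at 104 ± 5.62, Cdkn1a at 97.5 ± 24.2 and Ccng1 at 94.7 ± 16.4 FPKM led, and their libraries overlapped. Plk2 at 64.4 ± 6.62, Mdm2 at 57.0 ± 6.58 and Pmaip1 at 53.6 ± 5.43 FPKM followed, again overlapping as neighbours. Perp at 27.1 ± 0.865 and Trp53inp1 at 24.6 ± 11.7 FPKM came next, and Zmat3 at 13.2 ± 1.84 and Sesn1 at 10.1 ± 1.90 FPKM were lowest, each pair again with overlapping libraries. For comparison, Trp53 stood at 149 to 165 FPKM in the same libraries.

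**Figure D1:**
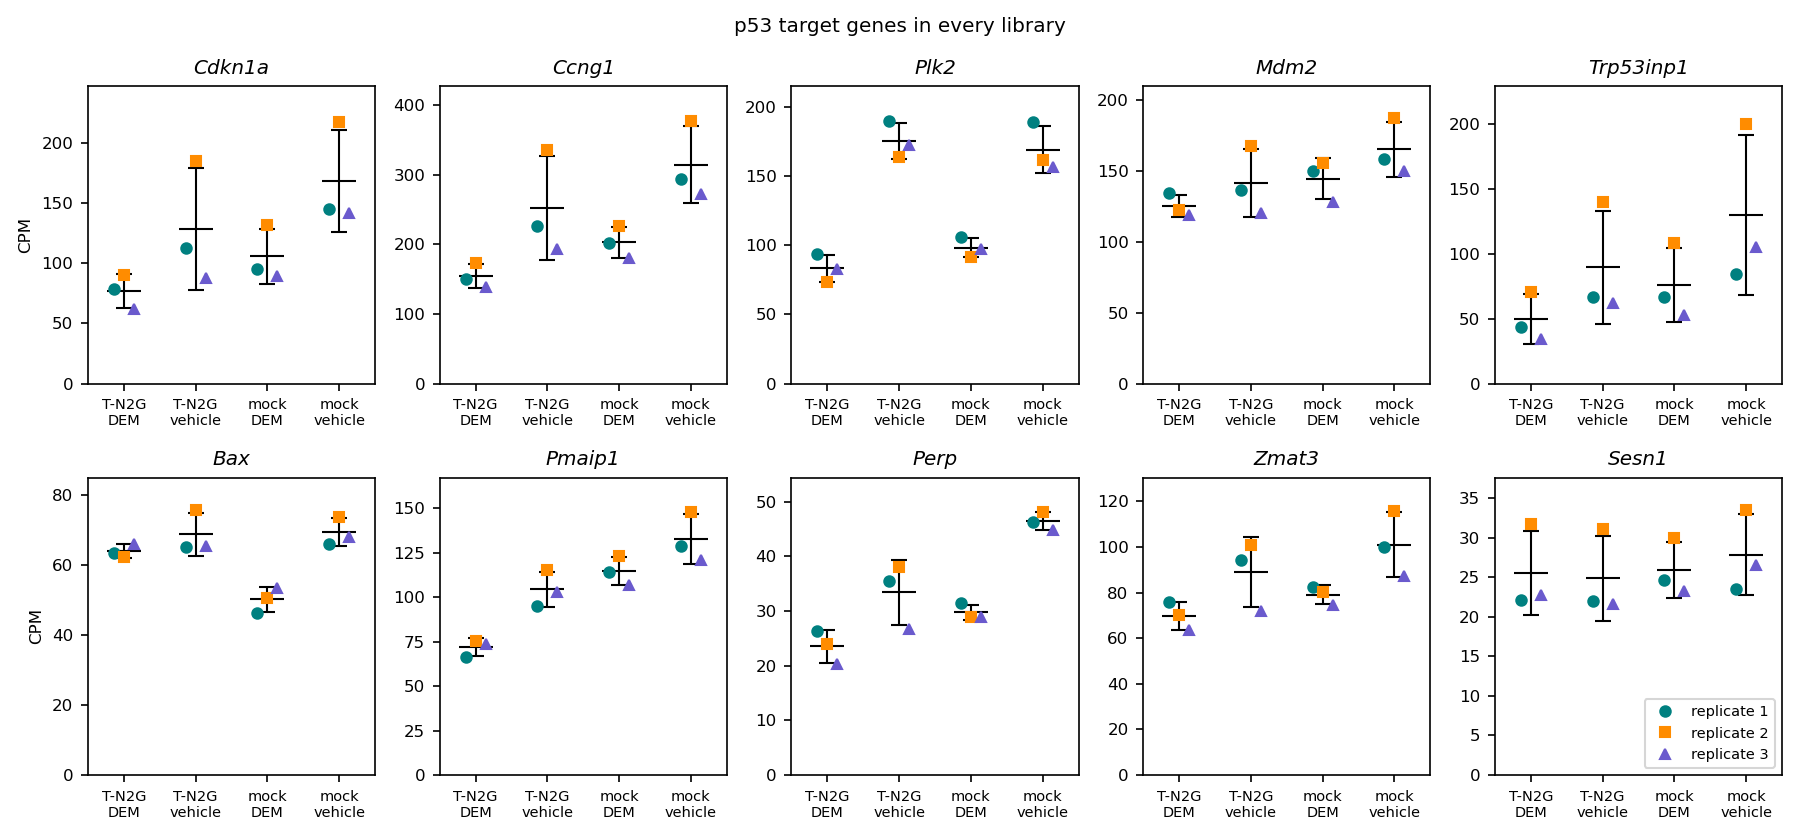
CPM (linear axis from 0) of the 10 p53 target genes in each of the 12 libraries, by group, with the symbol giving the replicate number and the bar the mean ± SD of n = 3. Plk2 and Perp separate DEM from vehicle libraries within each cell population, Sesn1 does not, and in Cdkn1a, Ccng1, Pmaip1, Trp53inp1 and Sesn1 replicate 2 is the highest library of every group.

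The first comparison asked what DEM does in cells that carry the tethered heterodimer. The edgeR quasi-likelihood test, adjusted over all genes (Benjamini-Hochberg, called under 0.05), called 4 of the 10 members lower and 0 higher, against a background of 7.55% of all tested genes called lower and 10.1% called higher. Adding the replicate number as a term in the fit, because same-numbered libraries deviated together, gave 8 lower and 0 higher, against 22.2% and 22.8% of all genes. The median log2 fold change was -0.52 over the members, while that of all tested genes was within 0.01 of 0. The same comparison in mock cells likewise called 4 members lower and 0 higher, against 6.18% and 7.76% of all genes. With the replicate term these counts were 9 and 0, against 21.9% and 20.9%, and the members' median was -0.55 without that term. Of the 4 genes called lower in each population, 3 were called in both: Plk2, Perp and Ccng1. The share of all genes called lower in both populations was not counted.

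Among the regulators of the cell cycle, Plk2, a polo-like kinase of centriole duplication and the stress response, had 93.5, 73.8 and 83.1 CPM in T-N2G DEM libraries, against 190, 164 and 173 CPM in T-N2G vehicle libraries. Mock cells had 106, 91.8 and 97.4 CPM with DEM, against 189, 162 and 157 CPM with vehicle. No DEM library reached any vehicle library. The log2 fold change was -1.08 ± 0.10 (SE) in T-N2G cells (2.11-fold lower, adjusted p = 6.60e-05) and -0.78 ± 0.10 in mock cells (1.72-fold lower, adjusted p = 0.00118). In mock cells the call was lost with replicates 1 and 2 alone (adjusted p = 0.0532).

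Ccng1, cyclin G1, an unusual cyclin that recruits protein phosphatase 2A to Mdm2, had 151, 174 and 139 CPM in T-N2G DEM libraries, against 227, 336 and 194 CPM in T-N2G vehicle libraries. Mock cells had 202, 226 and 181 CPM with DEM, against 294, 377 and 272 CPM with vehicle. Within each population the DEM libraries lay below all vehicle libraries, by a log2 fold change of -0.70 ± 0.18 in T-N2G cells (adjusted p = 0.0225) and -0.63 ± 0.18 in mock cells (adjusted p = 0.0411). The call was close to the threshold without the replicate term. In T-N2G cells it was lost when T-N2G DEM replicate 1 was left out (adjusted p = 0.0683), likewise T-N2G DEM replicate 3 (adjusted p = 0.0791) and T-N2G vehicle replicate 2, where the log2 fold change was -0.45 (adjusted p = 0.0585). In mock cells it was lost without any 1 of the 6 libraries, with adjusted p between 0.0515 and 0.129. With the replicate term the adjusted p was 5.96e-07 in T-N2G cells and 2.47e-06 in mock cells.

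Cdkn1a encodes p21, the inhibitor of cyclin-dependent kinases through which p53 arrests the cell cycle. It had 78.3, 89.8 and 61.7 CPM in T-N2G DEM libraries, against 113, 185 and 87.3 CPM in T-N2G vehicle libraries. Mock cells had 95.5, 132 and 89.3 CPM with DEM, against 145, 217 and 142 CPM with vehicle. The T-N2G groups overlapped by 1 pair of libraries, since DEM replicate 2 lay above vehicle replicate 3, and the mock groups did not overlap. The log2 fold changes of -0.75 ± 0.27 in T-N2G cells (adjusted p = 0.0743) and -0.67 ± 0.26 in mock cells (adjusted p = 0.109) were not called. Adding that term gave -0.71 ± 0.09 (adjusted p = 4.99e-06) and -0.67 ± 0.08 (adjusted p = 9.56e-06), both called. Within numbered pairs the log2 ratio of DEM to vehicle was -0.53, -1.04 and -0.50 in T-N2G cells and -0.61, -0.72 and -0.67 in mock cells. Leaving out T-N2G vehicle replicate 3, the library that overlapped, gave -0.97 in T-N2G cells (adjusted p = 0.0329).

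Mdm2, the ubiquitin ligase of p53, moved least among the genes that the replicate term called. It had 134, 122 and 119 CPM in T-N2G DEM libraries, against 136, 167 and 120 CPM in T-N2G vehicle libraries, and 150, 155 and 128 CPM in mock DEM libraries, against 158, 187 and 150 CPM in mock vehicle libraries. Groups overlapped in both populations, but DEM was below vehicle in each of the 6 numbered pairs. The log2 fold changes were -0.17 ± 0.12 in T-N2G cells (adjusted p = 0.356) and -0.19 ± 0.12 in mock cells (adjusted p = 0.313), not called, and the adjusted p with the replicate term was 0.0498 and 0.0228.

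Of the apoptosis genes, Pmaip1 (Noxa, a BH3-only protein that neutralizes Mcl1) had 66.3, 75.6 and 73.7 CPM in T-N2G DEM libraries, against 95.0, 115 and 103 CPM in T-N2G vehicle libraries. These did not overlap, and Pmaip1 fell by 0.54 ± 0.09 on the log2 scale (adjusted p = 0.00302), a call lost with replicates 1 and 2 alone (adjusted p = 0.0562). In mock cells it had 114, 123 and 107 CPM with DEM, against 129, 148 and 121 CPM with vehicle, which overlapped. That log2 fold change of -0.21 ± 0.09 was not called without the replicate term (adjusted p = 0.148) and was called with it (adjusted p = 0.00262).

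Bax, the pore-forming effector of mitochondrial apoptosis, showed the reverse order of the cell populations. It had 63.3, 62.4 and 66.1 CPM in T-N2G DEM libraries, against 65.2, 75.8 and 65.3 CPM in T-N2G vehicle libraries, with a log2 fold change of -0.11 ± 0.08 (adjusted p = 0.379). Over the alternative fits the adjusted p for Bax in T-N2G cells ran from 0.0475 to 0.924. In mock cells it had 46.4, 50.7 and 53.4 CPM with DEM, against 66.1, 73.8 and 68.1 CPM with vehicle, with no overlap. There Bax fell by 0.47 ± 0.08 on the log2 scale (adjusted p = 0.00362), although with replicates 1 and 2 alone the adjusted p was 0.0593.

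Perp, a tetraspan membrane protein of desmosomes and an apoptosis effector, had 26.3, 24.0 and 20.3 CPM in T-N2G DEM libraries, against 35.5, 38.0 and 26.7 CPM in T-N2G vehicle libraries. Mock cells had 31.4, 29.0 and 28.9 CPM with DEM, against 46.3, 48.1 and 44.9 CPM with vehicle. DEM and vehicle libraries did not overlap in either population, and Perp fell by 0.50 ± 0.12 on the log2 scale in T-N2G cells (adjusted p = 0.0163) and by 0.64 ± 0.12 in mock cells (adjusted p = 0.00654). Leaving out T-N2G DEM replicate 3 (adjusted p = 0.0591), T-N2G vehicle replicate 1 (adjusted p = 0.0601) or T-N2G vehicle replicate 2 (adjusted p = 0.0517) ended the call in T-N2G cells. Over all alternative fits the highest adjusted p for Perp was 0.105 in T-N2G cells and 0.0418 in mock cells.

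Trp53inp1, which promotes p53 phosphorylation and autophagy, varied most between replicates. It had 43.7, 70.9 and 34.1 CPM in T-N2G DEM libraries, against 66.4, 140 and 61.9 CPM in T-N2G vehicle libraries, and 66.9, 108 and 52.6 CPM in mock DEM libraries, against 84.2, 200 and 105 CPM in mock vehicle libraries. Groups overlapped, yet DEM was lower in each of the 6 numbered pairs. The log2 fold changes of -0.85 ± 0.41 and -0.78 ± 0.41 were not called (adjusted p = 0.185 in T-N2G and 0.226 in mock cells), and with the replicate term they were -0.82 ± 0.10 and -0.76 ± 0.09 (adjusted p = 4.50e-06 and 8.66e-06).

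Zmat3, an RNA-binding zinc finger protein that regulates splicing, had 75.8, 70.1 and 63.6 CPM in T-N2G DEM libraries, against 94.4, 101 and 71.9 CPM in T-N2G vehicle libraries. Mock cells had 82.6, 80.1 and 74.6 CPM with DEM, against 100, 116 and 87.2 CPM with vehicle, without overlap, whereas the T-N2G groups overlapped. Its log2 fold change was -0.35 ± 0.13 in both populations, not called without the replicate term (adjusted p = 0.0814 in T-N2G and 0.0877 in mock cells) and called with it (0.000406 and 0.000389). Without T-N2G vehicle replicate 3 the T-N2G value was -0.49 (adjusted p = 0.0190). Sesn1, a sestrin that restrains mTORC1 and oxidative damage, was the exception. It had 22.1, 31.7 and 22.8 CPM in T-N2G DEM libraries, against 22.0, 31.1 and 21.6 CPM in T-N2G vehicle libraries, a log2 fold change of 0.04 ± 0.19 (adjusted p = 0.909). Mock cells had 24.6, 30.0 and 23.3 CPM with DEM, against 23.5, 33.5 and 26.5 CPM with vehicle. That log2 fold change was -0.10 ± 0.19 (adjusted p = 0.761), and neither value was called with the replicate term.

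Counting libraries in place of tests, 4 members in T-N2G cells and 6 in mock cells had every DEM library below every vehicle library, against 15.6% and 16.4% of all tested genes. The opposite placement held for 0 members in either population, against 18.2% and 17.1% of all genes. DEM was lower in all 3 numbered pairs for 8 members in T-N2G cells and 9 in mock cells, against 35.2% and 34.5% of all tested genes. Trp53 itself had 255, 215 and 247 CPM in T-N2G DEM libraries, against 260, 237 and 250 CPM in T-N2G vehicle libraries, and 234, 228 and 250 CPM in mock DEM libraries, against 262, 239 and 257 CPM in mock vehicle libraries. Its log2 fold change with DEM was -0.06 ± 0.07 in T-N2G cells and -0.09 ± 0.07 in mock cells, not called with or without the replicate term.

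**Figure D2:**
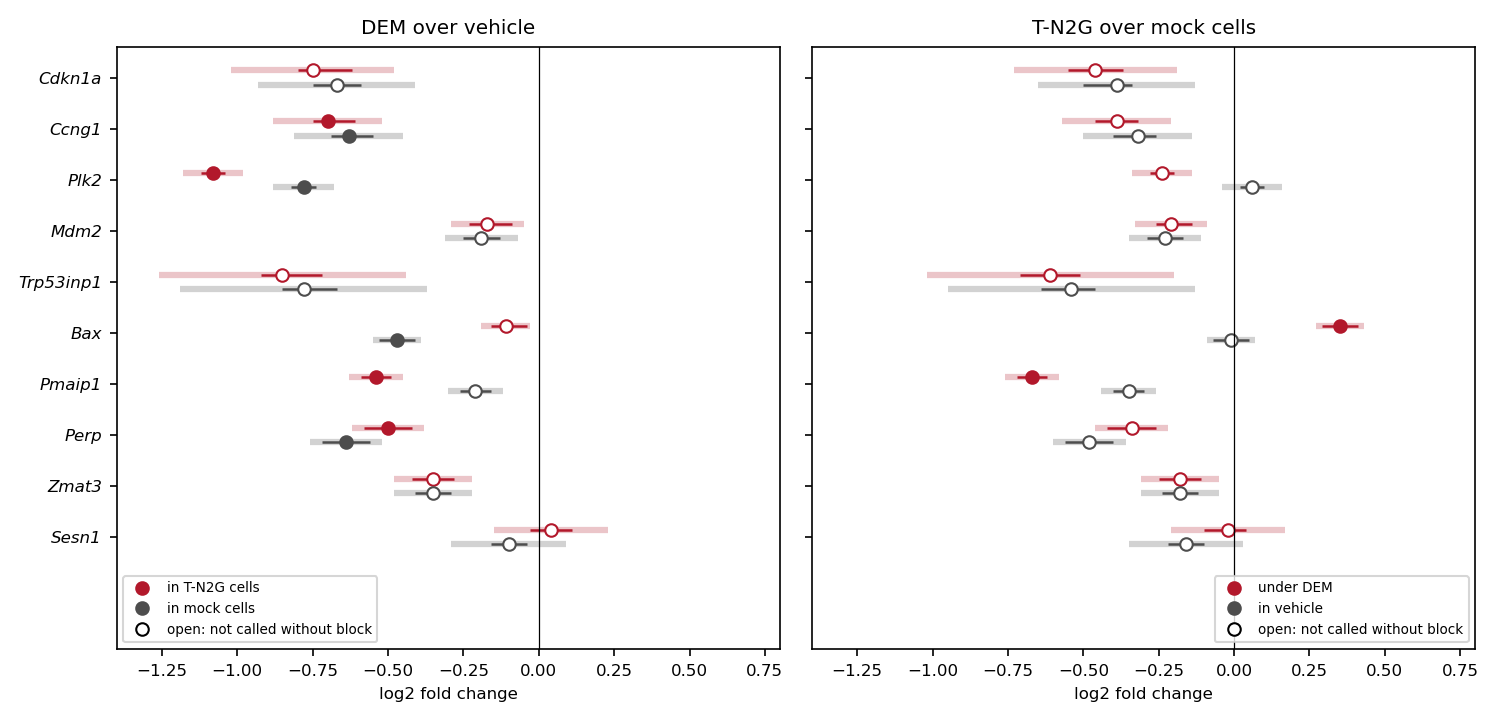
Log2 fold changes (points, fit without the replicate term) of the 10 members, for DEM over vehicle on the left and T-N2G over mock cells on the right. Pale bars are ± 1 SE without the replicate term, thin dark bars ± 1 SE around the estimate with it, and filled points were called without it. Plk2 lies farthest left for DEM at -1.08 in T-N2G cells, and Bax alone lies right of 0 by more than its SE on the right under DEM, at 0.35.

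The second pair of comparisons asked what the tethered heterodimer changes, without and with the electrophile. In vehicle, the edgeR test called 0 members in either direction, against 0.00802% of all genes called lower and 0.305% called higher. Unadjusted p was under 0.05 for 2 members, and DESeq2 called 1. For counts by unadjusted p or by DESeq2, here and below, the share of all genes was not counted. With the replicate term 6 members were lower and 0 higher, against 3.24% and 3.06% of all genes: Cdkn1a, Mdm2, Perp, Pmaip1, Ccng1 and Trp53inp1. Perp had 35.5, 38.0 and 26.7 CPM in T-N2G vehicle libraries, against 46.3, 48.1 and 44.9 CPM in mock vehicle libraries, and Pmaip1 had 95.0, 115 and 103 CPM in T-N2G vehicle libraries, against 129, 148 and 121 CPM in mock vehicle libraries. Both were without overlap, which held for 5.10% of all genes in that direction and 5.10% in the other. Their log2 fold changes were -0.48 ± 0.12 (adjusted p = 0.216, with the replicate term 0.000691) and -0.35 ± 0.09 (adjusted p = 0.266, with the replicate term 0.000307). The other 4 had values with the replicate term of -0.55 ± 0.09 for Trp53inp1, -0.42 ± 0.08 for Cdkn1a, -0.33 ± 0.07 for Ccng1 and -0.23 ± 0.06 for Mdm2.

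Under DEM, 1 member was called higher and 1 lower in T-N2G cells, against 2.61% and 1.11% of all genes. With the replicate term the counts were 1 higher and 7 lower, against 10.3% and 9.32%. Bax was the higher one. Its T-N2G DEM libraries at 63.3, 62.4 and 66.1 CPM lay above all mock DEM libraries at 46.4, 50.7 and 53.4 CPM, by a log2 fold change of 0.35 ± 0.08 (adjusted p = 0.0267, with the replicate term 0.000291). The call without the replicate term was lost when 1 of 5 of the 6 libraries was left out, with adjusted p of 0.0730, 0.0506 and 0.115 without T-N2G DEM replicates 1, 2 and 3, and of 0.122 and 0.0821 without mock DEM replicates 1 and 2. Pmaip1 was the lower one, with 66.3, 75.6 and 73.7 CPM in T-N2G DEM libraries, against 114, 123 and 107 CPM in mock DEM libraries. It fell by 0.67 ± 0.09 on the log2 scale (1.60-fold lower, adjusted p = 0.00117), and with replicates 1 and 2 alone the adjusted p was 0.0501. The genes that the replicate term added were Cdkn1a at -0.46 ± 0.09, Mdm2 at -0.20 ± 0.06, Plk2 at -0.24 ± 0.04, Perp at -0.34 ± 0.08, Ccng1 at -0.39 ± 0.07 and Trp53inp1 at -0.61 ± 0.10. The 3 members without overlap in the lower direction were Pmaip1, Perp and Ccng1, against 9.35% of all genes, and Bax was the 1 member in the higher direction, against 10.3%.

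The T-N2G and mock populations also differed in genes of the Y chromosome. Their 4 markers summed to 20.7 to 22.1 CPM in T-N2G DEM libraries, against 11.5 to 13.9 CPM in mock DEM libraries, and to 22.8 to 24.9 CPM in T-N2G vehicle libraries, against 13.7 to 16.2 CPM in mock vehicle libraries. Under DEM 3 of the 4 were called higher in T-N2G cells, and in vehicle 1, against 2.61% and 0.305% of all genes. A difference between populations other than T-N2G and the effect of T-N2G cannot be told apart for any gene of these comparisons.

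The difference of the DEM effects, T-N2G minus mock cells, compares both. Without the replicate term the edgeR test called 0 members, against 0.0160% of all genes lower and 0.417% higher. Unadjusted p was under 0.05 for 2 members, and DESeq2 called 0. With the replicate term 2 were called lower and 1 higher, against 0.978% and 1.82% of all genes. The difference was -0.30 ± 0.06 for Plk2 (adjusted p = 0.00892) and -0.33 ± 0.07 for Pmaip1 (adjusted p = 0.0152), whose DEM responses were more negative in T-N2G cells. It was 0.36 ± 0.08 for Bax (adjusted p = 0.0167), whose DEM response was more negative in mock cells. Each had the same sign in all 3 replicate numbers, at -0.20, -0.34 and -0.37 for Plk2, -0.34, -0.34 and -0.31 for Pmaip1 and 0.47, 0.26 and 0.37 for Bax. That fit calls genes whose differences agree between numbers, so the shared sign is not separate support. Perp, which was not called, also kept its sign, at 0.12, 0.07 and 0.24. The share of all genes with the same sign in all 3 numbers was not counted. For the other 7 the difference with the replicate term lay between -0.06 ± 0.13 (Trp53inp1) and 0.14 ± 0.11 (Perp), and a p above the threshold does not show that the populations respond alike. These comparisons reuse the same 4 groups, so their values are not independent of each other.

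The spread between replicates in these genes followed the replicate number. Replicate 2 was the highest library in all 4 groups for 5 members, Cdkn1a, Ccng1, Pmaip1, Trp53inp1 and Sesn1, which held for 17.4% of all tested genes. Replicate 3 was the lowest in all 4 groups for 5 members, Cdkn1a, Ccng1, Mdm2, Perp and Zmat3, against 8.51% of genes. Trp53inp1 in replicate 2 lay 0.66 log2 units above its group means on average (0.57 to 0.75 over the groups), Cdkn1a 0.40 (0.25 to 0.60) and Ccng1 0.27 (0.16 to 0.45). Plk2 instead was highest in replicate 1 in all 4 groups, by 0.14 (0.11 to 0.17), and Trp53 was lowest in replicate 2 in all 4 groups, at -0.09 (-0.15 to -0.06). The SE of the DEM response of Trp53inp1 in T-N2G cells was 0.41 without and 0.10 with the replicate term. The library codes of replicates 1 and 2 run in 1 series and those of replicate 3 in another. Within replicates 1 and 2 and with the replicate term, 9 members were called for DEM in T-N2G cells, 8 in mock cells, 3 for T-N2G over mock cells in vehicle and 7 under DEM. The share of all genes called in that fit was not counted.

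**Figure D3:**
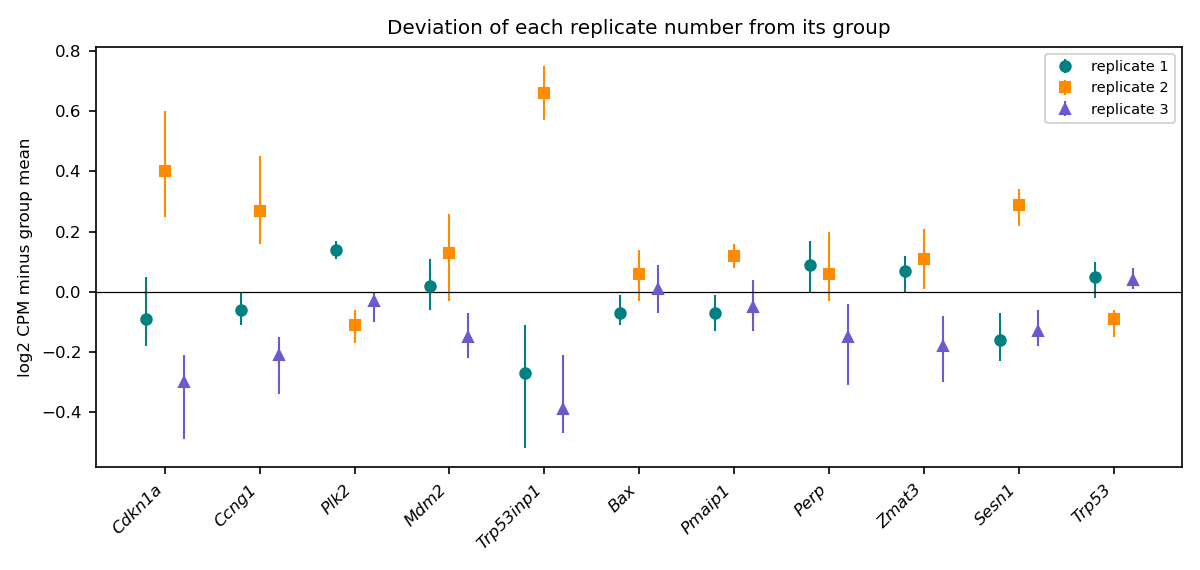
Mean deviation (log2 CPM) of each replicate number from its group mean for the 10 members and Trp53, with bars from the lowest to the highest of the 4 groups. Replicate 2 stands 0.66 above the group means in Trp53inp1 and 0.40 in Cdkn1a, whereas Trp53 deviates by -0.09 there.

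The genes whose pattern over the 12 libraries was most like that of Cdkn1a were sought among 8941 genes of at least 10 CPM, by the root mean square difference of standardized log2 CPM. They were 5730455P16Rik at 0.142, Eda2r (a death domain receptor of ectodysplasin A2) at 0.159, Myo18a (a myosin) at 0.213, and Fam212b and Foxo3 (a forkhead factor) at 0.214. Among the members Ccng1 at 0.179 ranked 3 in this order, Trp53inp1 at 0.258 ranked 9, Zmat3 at 0.380 ranked 35 and Mdm2 at 0.394 ranked 42. Perp ranked 112, Pmaip1 325, Sesn1 1013, Plk2 1151 and Bax 2115, while Trp53 ranked 4215. The 12 libraries share replicate numbers, so likeness here includes the shifts between numbers described above.

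A list of 31 further genes reported as p53 targets was measured in the same way, and 30 passed the filter (Gdf15 did not). With DEM in T-N2G cells 10 were called lower and 2 higher, with a median log2 fold change of -0.21, and with the replicate term 17 and 2. In mock cells 7 were lower and 2 higher, with a median of -0.23, and with the replicate term 19 and 3. The third higher gene was Ddit4, an inhibitor of mTORC1, at 0.46 ± 0.08 (adjusted p = 0.000179), which was at -0.22 ± 0.08 in T-N2G cells in the same fit (adjusted p = 0.0386). The backgrounds are those given above for the members. Of the lower genes 6 were called in both populations, which is 6 of the 10 and 6 of the 7, and both higher genes were called in both. Here too the share of all genes called in both was not counted. Dcxr, a dicarbonyl and xylulose reductase, had 2.43, 3.04 and 2.11 CPM in T-N2G DEM libraries, against 5.61, 8.67 and 4.87 CPM in T-N2G vehicle libraries, and fell by 1.33 ± 0.27 on the log2 scale (adjusted p = 0.00672) and in mock cells by 1.23 ± 0.26 (adjusted p = 0.0103). Fas, the death receptor, fell by 0.97 ± 0.21 in T-N2G cells (adjusted p = 0.00987) and by 0.72 ± 0.20 in mock cells (adjusted p = 0.0377). Eda2r, the receptor whose pattern was close to that of Cdkn1a, fell by 1.04 in both populations (adjusted p = 0.0421 in T-N2G and 0.0451 in mock cells). Psrc1, Polk (a translesion polymerase) and Rps27l (a ribosomal protein relative) were the other genes called lower in both. Phlda3, an inhibitor of Akt, fell by 0.39 ± 0.09 in T-N2G cells (adjusted p = 0.0129), as did Btg2, Bbc3 and Fbxw7, and Ckap2 fell in mock cells by 0.31 ± 0.08 (adjusted p = 0.0248).

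Rrm2b and Gadd45a were the genes called higher in both populations. Rrm2b, the p53-induced subunit of ribonucleotide reductase, had 31.3, 27.8 and 28.9 CPM in T-N2G DEM libraries, against 19.2, 17.1 and 21.1 CPM in T-N2G vehicle libraries, and 33.3, 27.7 and 30.9 CPM in mock DEM libraries, against 20.0, 18.8 and 17.9 CPM in mock vehicle libraries. It rose by 0.62 ± 0.10 in T-N2G cells and by 0.70 ± 0.10 in mock cells (adjusted p = 0.00159 in both). Gadd45a, a growth arrest and DNA damage protein, rose by 0.52 ± 0.13 (adjusted p = 0.0189) and 0.61 ± 0.13 (adjusted p = 0.0114). Neither differed between T-N2G and mock cells by a call, at log2 fold changes under DEM of -0.06 ± 0.09 for Rrm2b and -0.11 ± 0.13 for Gadd45a. Between T-N2G and mock cells in vehicle the edgeR test called 0 of the 30, DESeq2 0, and 5 had an unadjusted p under 0.05. With the replicate term 7 were lower, against 3.24% of all genes. Under DEM the edgeR test without that term called 2 lower, against 1.11% of all genes. These were Phlda3 at -0.41 ± 0.09 (adjusted p = 0.0269) and Tnfrsf10b, the TRAIL receptor, at -0.27 ± 0.06 (adjusted p = 0.0225). With the replicate term 11 were lower under DEM, against 9.32%.

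**Figure D4:**
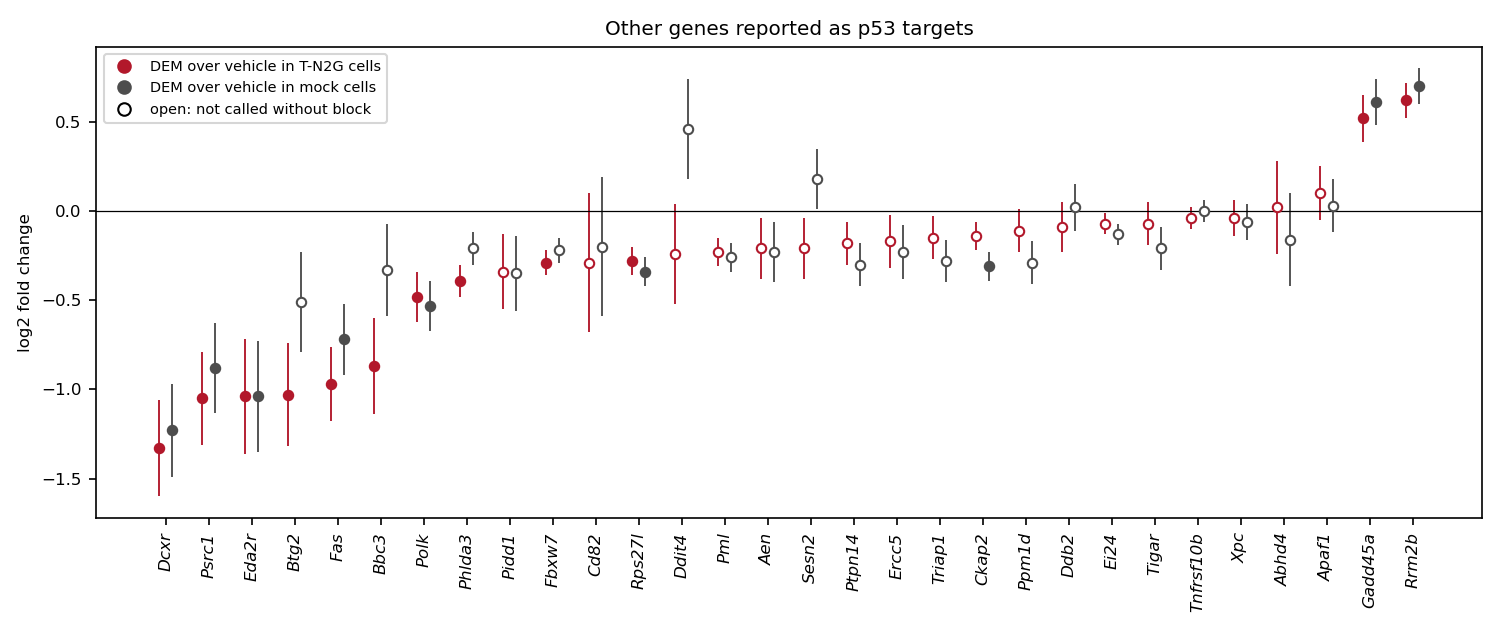
Log2 fold changes of DEM over vehicle (± 1 SE, fit without the replicate term) of the 30 further p53 targets that were tested, T-N2G cells left of mock cells for each gene and ordered by the T-N2G value, with filled points called. Dcxr lies lowest at -1.33 in T-N2G cells and Rrm2b highest at 0.62.

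Of 17 tested genes among p53 and its regulators, DEM came with 2 calls in T-N2G cells and 1 in mock cells, all higher, where 10.1% and 7.76% of all genes were called higher, so these counts are near the background. The replicate term made them 6 higher and 2 lower in the T-N2G population, against 22.8% and 22.2% of all genes, and 4 higher and 3 lower in mock cells, against 20.9% and 21.9%. Ep300, the acetyltransferase and coactivator of p53, rose by 0.40 ± 0.06 in T-N2G cells (adjusted p = 0.000806) and by 0.33 ± 0.06 in mock cells (adjusted p = 0.00363), and the checkpoint kinase Chek2 rose by 0.54 ± 0.11 in T-N2G cells (adjusted p = 0.00594). Mdm4, the inhibitory partner of Mdm2, was at -0.12 ± 0.11 in T-N2G and 0.03 ± 0.11 in mock cells and not called. Cdkn2a, whose Arf product inhibits Mdm2, was the most abundant of the list by FPKM, at 344 ± 29.8 FPKM in T-N2G DEM, 386 ± 28.7 in T-N2G vehicle, 337 ± 14.3 in mock DEM and 395 ± 29.7 in mock vehicle libraries. Its log2 fold change with DEM was -0.17 ± 0.08 in T-N2G and -0.23 ± 0.08 in mock cells, called only with the replicate term (adjusted p = 0.00448 and 0.000422). Between T-N2G and mock cells the edgeR test called 0 of the 17 in vehicle and 0 under DEM (0 and 3 at an unadjusted p under 0.05, 0 and 1 by DESeq2). With the replicate term 1 was higher in vehicle and 5 under DEM, against 3.06% and 10.3% of all genes.

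Among the 13 family relatives of the members, 1 was called lower with DEM in T-N2G cells and 0 in mock cells, and 1 was called higher in T-N2G over mock cells in vehicle and under DEM. Each time it was Cdkn1c, the p57 relative of p21. Of all genes 7.55% and 6.18% were called lower with DEM. In T-N2G over mock cells 0.305% were called higher in vehicle and 2.61% under DEM. In mock cells with DEM 2 had an unadjusted p under 0.05 and DESeq2 called 0. The replicate term gave 4 higher and 2 lower with DEM in T-N2G cells, 3 and 3 in mock cells, and 4 and 3 for the T-N2G comparison under DEM. The shares of all genes in that fit were 22.8% and 22.2% with DEM in the T-N2G population, 20.9% and 21.9% in mock cells, and 10.3% and 9.32% for the T-N2G comparison, so the DEM counts are near the background. Cdkn1c had 15.8, 15.4 and 14.5 CPM in T-N2G DEM libraries, 22.3, 20.1 and 20.7 in T-N2G vehicle, 9.67, 9.94 and 10.6 in mock DEM and 12.6, 11.7 and 11.0 in mock vehicle libraries. Cdkn1c was higher in T-N2G cells by 0.84 ± 0.08 on the log2 scale in vehicle (adjusted p = 0.000853) and by 0.60 ± 0.09 under DEM (adjusted p = 0.00142), and its log2 fold change with DEM in T-N2G cells was -0.46 ± 0.08 (adjusted p = 0.00342). Cdkn1a, by contrast, was lower in T-N2G cells with the replicate term and not called without it.

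Of 19 cell cycle genes known to be lowered through p21 and the DREAM complex, a repressor of cell cycle genes, 1 was called higher with DEM in T-N2G cells (Foxm1, at 0.22 ± 0.07, adjusted p = 0.0434) and 1 lower in mock cells (Mcm5, at -0.21 ± 0.06, adjusted p = 0.0477). Of all genes 10.1% were called higher in the first comparison and 6.18% lower in the second. The replicate term gave 1 higher and 4 lower in the T-N2G population, against 22.8% and 22.2%, and 1 and 9 in mock cells, against 20.9% and 21.9%. Between T-N2G and mock cells the edgeR test called 0 in vehicle and 0 under DEM, as did DESeq2 (0 and 2 at an unadjusted p under 0.05). With the replicate term 3 were higher and 1 lower under DEM, against 10.3% and 9.32% of all genes. Birc5, the most abundant of the list by FPKM, was at -0.12 ± 0.06 under DEM (adjusted p = 0.411). Of 16 G1 cyclins, kinases and inhibitors, 5 were called lower with DEM in T-N2G cells and 2 in mock cells, against 7.55% and 6.18% of all genes. With the replicate term 8 were lower and 3 higher in T-N2G cells, against 22.2% and 22.8%, and 7 lower and 2 higher in mock cells, against 21.9% and 20.9%. Cdk4, the D-cyclin kinase, fell in both, by 0.22 ± 0.05 (adjusted p = 0.0146) and 0.27 ± 0.05 (adjusted p = 0.00660). Ccnd1 fell by 0.83 ± 0.23 in T-N2G cells (adjusted p = 0.0295), Ccne1 by 0.49 ± 0.12 (adjusted p = 0.0197) and Cdkn2b in mock cells by 0.35 ± 0.07 (adjusted p = 0.00827). Of 11 tested Bcl2 family genes other than Bax and Pmaip1, Bbc3 (Puma, also on the target list) was called lower with DEM in T-N2G cells at -0.87 ± 0.27 (adjusted p = 0.0431) and Bad higher in mock cells at 0.44 ± 0.13 (adjusted p = 0.0414). The replicate term gave 4 higher and 2 lower with DEM in each population, against 22.8% and 22.2% of all genes in T-N2G cells and 20.9% and 21.9% in mock cells, so the lower count is near the background. None was called between T-N2G and mock cells by edgeR or DESeq2 (0 in vehicle and 2 under DEM at an unadjusted p under 0.05). With the replicate term 1 was higher in vehicle, against 3.06% of all genes. Under DEM that term gave 1 higher and 3 lower, against 10.3% and 9.32%. Bak1, the partner effector of Bax and the most abundant of that list by FPKM, had a log2 value of 0.14 ± 0.10 in that comparison under DEM (adjusted p = 0.603), where Bax had 0.35.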

How the data were processed

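Polyadenylated RNA of 12 libraries was analysed from the table the authors deposited, which gives an estimated count of fragments and an FPKM value per gene and library. Per the submitters' processing notes the build was mm9 and the tools were Cuffdiff 2.1.1, TopHat2 2.0.8b and bcl2fastq 2.16.0.10. Per the labels' protocols libraries were made with a strand-specific kit, and the strand setting and gene annotation are not given in the sources used here. All values of the members were whole. Library totals were 18863560 to 23095692 fragments.

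Counts were rounded and fitted in R 4.3.3 with edgeR 4.0.16 (filterByExpr, minimum count 10, minimum total 15, TMM factors 0.980 to 1.028), with the quasi-likelihood method in 1 model of the 4 groups, and p-values were adjusted over the 12469 genes tested in 5 contrasts. The approximate SE divides the log2 fold change, without its sign, by the root of the F statistic. Biological variation was 0.11 as a coefficient, at 8 residual degrees of freedom. CPM used effective library sizes. The fit without the replicate term was tested on simulated data that held no shift between replicate numbers. The fit with that term was not tested in this way.

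Replicate numbers stand in the titles without a stated meaning. Deviations from group means correlated at 0.334 to 0.575 in the 18 same-numbered pairs of libraries, at -0.386 to -0.0399 in the 36 other pairs, and all 12 libraries were closest to their own number, so the numbers were taken to pair the samples and a fit with a replicate term (coefficient of variation 0.0428) is given where it changed a call. Because each group's mean was subtracted, deviations within a group cancel. The negative values of the other pairs therefore follow from the positive ones and are not separate support for pairing. Alternatives were DESeq2 1.42.0, its size factors, no filter, limma 3.58.1 on log2(FPKM + 1) and log2(FPKM + 0.1), only the groups compared, each library left out, and replicates 1 and 2 alone. Replicates 1 and 3 alone, and pairs of replicates with the replicate term, were added after seeing the data.

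The members, lists and tests were chosen with earlier results of these data known. Named genes are all members, Trp53, Mdm4, Nfe2l2 and Mafg, the 5 genes most like Cdkn1a, and per list and contrast up to 4 called genes with the smallest adjusted p, or its most abundant gene where nothing was called. Other named genes complete a small count and were chosen after their values were seen. Promoter windows are from RefSeq (GRCm38.p6), and no coordinate was taken across builds.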

Additional observations from a re-analysis of the deposited data

Results flagged for a closer look

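For 3 members the response to DEM differed between the cell populations by the test of the difference itself, in the edgeR fit with the replicate term. The difference (T-N2G minus mock cells) was -0.30 on the log2 scale for Plk2, 0.36 for Bax and -0.33 for Pmaip1, and each kept its sign in all 3 replicate numbers and in all 22 alternatives. These 3 were picked by their call, and the alternatives refit the same libraries, so the kept signs are not separate support. Without the replicate term none was called (adjusted p = 1.00, 0.578 and 1.00). Of the 22 alternatives, Plk2 was called in 1, Bax in 2 and Pmaip1 in 2. With replicates 1 and 2 alone and the replicate term the adjusted p was 0.0920 for Plk2, 0.0567 for Bax and 0.0294 for Pmaip1, and with replicates 1 and 3 alone 0.123, 0.0314 and 0.155. Groups of 3 libraries were not searched for single outlying libraries.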

How the results depend on the processing

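The replicate term moved the number of members called most: 8 for DEM in T-N2G cells and 9 in mock cells (4 each without it), 6 for T-N2G over mock cells in vehicle (0 without it), 8 under DEM (2 without it) and 3 for the difference (0 without it). In the same order, replicates 1 and 2 alone gave 2, 1, 0, 0 and 0, and with the replicate term 9, 8, 3, 7 and 1. Replicates 1 and 3 alone with that term gave 7, 8, 6, 7 and 1. The fit on only the groups compared gave 2 for DEM in T-N2G cells, and DESeq2 gave 1 for T-N2G over mock cells in vehicle. Leaving out 1 library gave 2 to 6 for DEM in T-N2G cells, 3 in mock cells each time, 0 in vehicle, 1 to 2 under DEM and 0 for the difference. The share of all genes called was counted only for the edgeR fit of all 12 libraries, with and without the replicate term. Counts of the other fits, and counts by unadjusted p, therefore stand without a background. In the DEM and T-N2G comparisons of the members, signs changed only in values near 0 that were not called, and for the difference of DEM effects the 7 members not called with the replicate term changed sign in 1 to 11 of 22 alternatives. Sesn1 with DEM in T-N2G cells was -0.01 by limma with either pseudocount and -0.15 to 0.22 with 1 library left out, in mock cells -0.21 to 0.06, and between the cell populations under DEM -0.22 to 0.08. In vehicle, Plk2 lay between -0.01 and 0.14 and Bax between -0.08 and 0.03 with 1 library left out, and Bax was 0.01 with replicates 1 and 2 alone, with or without the replicate term. The cause of these changes was not tested. With 3 libraries a group, changes within the SE of a member could not be called, and larger changes could also stay uncalled. Perp in T-N2G over mock cells in vehicle, at -0.48 ± 0.12, was not called by edgeR without the replicate term (adjusted p = 0.216).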
